A study of Mus musculus with 8 samples.

Results

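The unfolded protein response is the set of signals that a cell starts when unfolded proteins build up in the endoplasmic reticulum (ER). The sensors IRE1, PERK and ATF6 in the ER membrane start it. IRE1 splices the Xbp1 transcript, PERK favours translation of ATF4, and ATF6 is cut to release a transcription factor. Together these factors raise ER chaperones, folding enzymes and parts of ER-associated degradation, the route by which misfolded proteins leave the ER. In lymphocytes the response is best known from plasma cells, which secrete antibody and need XBP1.

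The 10 genes described here are Hspa5, Xbp1, Atf4, Ddit3, Dnajb9, Herpud1, Pdia4, Sdf2l1, Calr and Hsp90b1, a fixed list of names chosen for their place in this response. They were found through the RefSeq accession of each probe, which gave 12 probes, 2 each for Atf4 and Dnajb9 and 1 for each other gene, out of 55681 non-control probes and 20284 named genes. RNA came from spleen NK cells of mice that carry a ChAT-eGFP reporter, in which fluorescence marks expression of choline acetyltransferase. NK cells were enriched magnetically and then sorted by the reporter into ChAT+ and ChAT- cells, with cells of 2 to 4 mice pooled per sample, and 4 pools of each kind were hybridised to 1-colour (Cy3) Agilent arrays. The labels used here give no strain, age or treatment, and both groups carry the reporter. Nor do they tell whether a mouse gave cells to more than 1 pool, so each p-value reflects the scatter among these pools, part of which may be technical. The question is how transcripts of ChAT+ NK cells compare with those of ChAT- NK cells.

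Values are log2 signals relative to each array's 75th percentile, which is set to 0. A gene is called when limma's adjusted p, over the 13607 genes that had a probe well above background on 4 or more arrays, is under 0.05. The share of non-control spots well above background ran from 50.2% to 63.2% over the arrays. Each group had its own slide and its own scan, so that for every value below the slide, the scan and the group cannot be told apart. Chat was higher in the ChAT+ pools, at 3.75 ± 0.25 (SD, n = 4) against 2.65 ± 0.34 (SD, n = 4; limma adjusted p = 0.0201), a call lost without ChAT+ replicate 3 or ChAT- replicate 4 (adjusted p up to 0.0647) or with no filter on dim probes (0.0532). The ChAT- pools thus also held Chat signal. Of 25 tested NK identity genes, 24 had lower means in the ChAT+ pools, beside 46.9% of all genes. The summed linear signal of the 25 lay between 216 and 318 in ChAT+ pools and between 309 and 391 in ChAT- pools. In sorted pools, fewer cells of a kind and less RNA per cell cannot be told apart.

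What several of these genes share in sequence is the ER stress response element, which ATF6 and XBP1 are known to bind together with NF-Y. All 10 genes had an entry in the RefSeq promoter table (GRCm38.p6), each holding 250 bases before and 50 after the gene's start. The element, CCAAT and CCACG with 9 bases of any kind between them, searched on both strands, stood in 3 of the 10 (Hspa5, Calr and Hsp90b1) and in 0.119% of all 32851 promoters. The shorter form, ATTGG and CCACG with 1 base between them, stood in Herpud1 and in 0.0365% of all promoters. These 4 stretches are shown because they hold 1 of the 2 forms of the element, which the other 6 windows did not. Each is read 5′ to 3′ on the gene's strand, with the fixed letters of the element in capitals.
Hspa5: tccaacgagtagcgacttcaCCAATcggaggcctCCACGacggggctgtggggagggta
Calr: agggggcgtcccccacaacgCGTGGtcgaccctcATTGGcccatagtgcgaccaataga
Hsp90b1: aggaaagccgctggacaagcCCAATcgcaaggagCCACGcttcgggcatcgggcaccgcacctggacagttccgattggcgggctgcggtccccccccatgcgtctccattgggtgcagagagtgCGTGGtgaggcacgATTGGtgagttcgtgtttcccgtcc
Herpud1: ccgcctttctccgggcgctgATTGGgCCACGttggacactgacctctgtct

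The Hspa5 stretch lies at chr2:34772005-34772063 on the plus strand, and its element starts 65 bases before the gene's start. The Herpud1 stretch lies at chr8:94386357-94386407 on the plus strand. The Calr stretch lies at chr8:84847055-84847113 and the Hsp90b1 stretch at chr10:86705513-86705676, both on the minus strand. Hsp90b1 holds an exact match to the element once on each strand, the only member with more than 1 exact match in its window. In Calr the element is read on the opposite strand. The UPR element TGACGTGG (0.676% of all promoters) and the cAMP response element TGACGTCA (1.79%) stood in 0 of the 10 windows. The CEBP-ATF composite element TGATGNAA (3.97%) stood in Herpud1 only, where it does not overlap the ER stress element. A match is a run of letters and not a measured binding site. Elements that differ from these letters or lie outside the windows were not searched for.

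None of the 10 genes passed the test between ChAT+ and ChAT- NK cells, against 5.96% of all genes tested (2.81% higher and 3.15% lower in ChAT+). Of the 12 probes 0 passed in a limma fit over all 32086 probes above background, against 3.09% of those probes (1.46% higher and 1.64% lower). All 12 probes were well above background on all 8 arrays and none was saturated, so dim signal did not limit these values. At an unadjusted p under 0.05, 2 genes were lower in ChAT+ (Hsp90b1 and Herpud1) and 0 higher, against 11.9% and 12.9% of all genes. In the probe fit 22.6% of all probes had such a p, 10.7% higher and 11.9% lower. The 95% interval of all 10 log2 fold changes lay inside 2-fold in either direction, as did that of 77.5% of all genes. The bound farthest from 0 was -0.93, for Hsp90b1. Of the 10 genes, 8 had lower means in ChAT+ pools, where 46.9% of all genes did, and the median log2 fold change was -0.18 beside 0.026 for all genes. With the array median as scale in place of the 75th percentile, the median over all genes moved to 0.24, 3 of the 10 means were lower, and 9 of the 10 lay below that all-gene median, as 9 did on the main scale. One alternative gave a call: with normexp background correction Hsp90b1 was lower by a log2 fold change of -0.73 (adjusted p = 0.039, in a range of 0.039 to 0.42 over all alternatives).

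**Figure D1:**
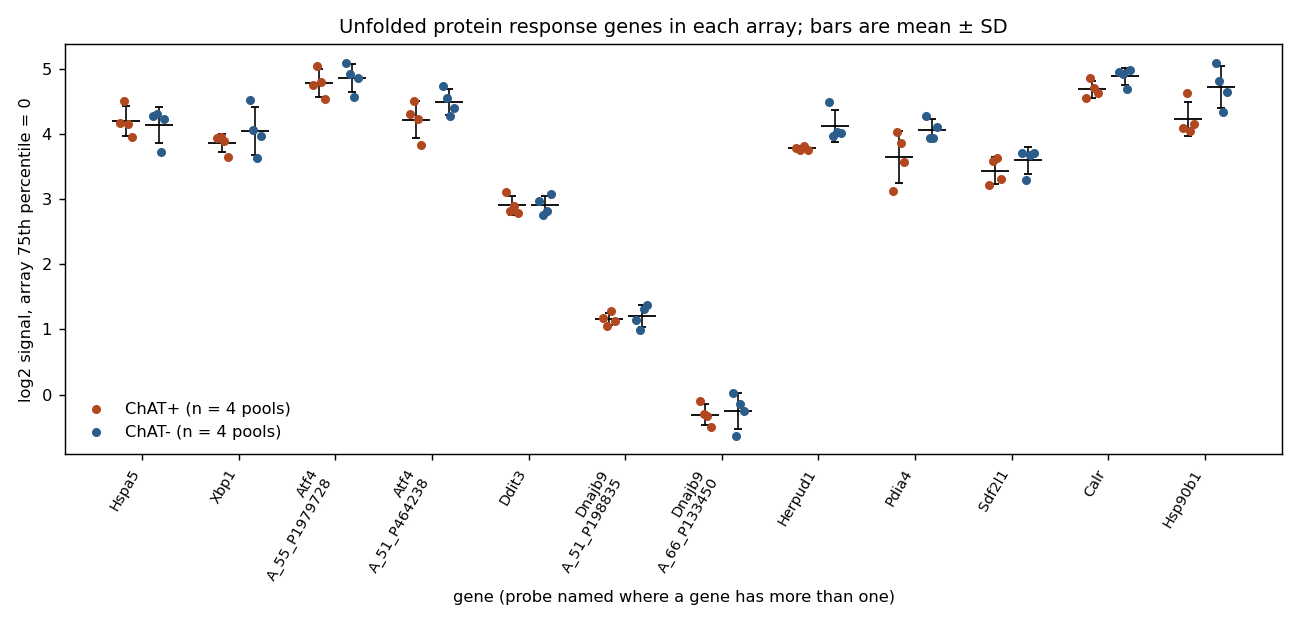
Log2 signal of the 12 probes of the 10 genes (vertical axis, array 75th percentile = 0) in the 4 ChAT+ and 4 ChAT- pools, with points for single arrays and bars for mean ± SD. The groups overlap for all probes except that of Herpud1, whose ChAT+ values run from 3.76 to 3.83 and whose ChAT- values run from 3.97 to 4.49.

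Among the chaperones, Hsp90b1, which encodes GRP94, the HSP90 of the ER, differed most. Its signal was 4.10, 4.63, 4.05 and 4.16 in ChAT+ replicates 1 to 4 and 5.10, 4.82, 4.34 and 4.64 in ChAT- replicates 1 to 4. Of the ChAT+ arrays, 3 lay below every ChAT- array, and replicate 2 lay among them. It differed by -0.49 on the log2 scale (SE 0.19, 95% interval -0.93 to -0.051, limma adjusted p = 0.161; two-sided exact permutation p = 0.0571). Without any 1 array the fold change stayed between -0.62 and -0.37. The fold change was nearest to 0 without ChAT- replicate 1.

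Hspa5 encodes BiP, the ER HSP70 that holds the sensors inactive and is a standard readout of the response. Its signal was 4.17, 4.51, 4.16 and 3.96 in the ChAT+ arrays and 4.28, 4.31, 3.73 and 4.23 in the ChAT- arrays. The groups overlapped, with ChAT+ replicate 2 the highest of all arrays and ChAT- replicate 3 the lowest. The log2 fold change was 0.060 (SE 0.17, 95% interval -0.34 to 0.46, limma adjusted p = 0.867). Its sign turned in 2 of the 20 alternatives, to -0.077 without ChAT- replicate 3 and -0.044 without ChAT+ replicate 2.

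Calr encodes calreticulin, the lectin chaperone that holds glycoproteins in the ER and serves MHC class I assembly. Its signal was 4.56, 4.86, 4.70 and 4.64 in ChAT+ and 4.95, 4.93, 4.69 and 4.98 in ChAT- arrays. All 4 ChAT+ values lay below the ChAT- mean, but ChAT- replicate 3 lay within the ChAT+ range. The log2 fold change was -0.20 (SE 0.12, 95% interval -0.47 to 0.075, limma adjusted p = 0.345).

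Pdia4 encodes ERp72, a protein disulfide isomerase. Its signal was 3.13, 4.04, 3.86 and 3.57 in ChAT+ and 4.29, 3.95, 3.94 and 4.11 in ChAT- arrays. ChAT+ replicate 1 was the lowest by a wide margin, and the ChAT+ spread (SD 0.40) was wider than the ChAT- spread (SD 0.16). The log2 fold change was -0.42 (SE 0.20, 95% interval -0.88 to 0.027, limma adjusted p = 0.227) and moved to -0.25 without ChAT+ replicate 1.

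Sdf2l1 encodes a partner of the ER chaperone complex. Its signal ran from 3.21 to 3.64 in ChAT+ and from 3.29 to 3.72 in ChAT- arrays, with a log2 difference of -0.16 (SE 0.15, limma adjusted p = 0.548). Its ChAT- replicate 2 lay in the ChAT+ range, apart from the other ChAT- arrays at 3.69 to 3.72. The difference was -0.27 without that array and -0.088 without ChAT+ replicate 1.

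Dnajb9 encodes ERdj4, a co-chaperone of BiP that is a known target of spliced XBP1. Its brighter probe ran from 1.05 to 1.28 in ChAT+ and from 1.00 to 1.37 in ChAT- arrays, with a log2 fold change of -0.048 (SE 0.12, 95% interval -0.33 to 0.23, limma adjusted p = 0.844). Its other probe had a log2 fold change of -0.056 in the probe fit (95% interval -0.44 to 0.33), so both probes of this gene gave values near 0. The brighter probe turned to 0.0060 without ChAT- replicate 4.

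Herpud1, which encodes a membrane protein of ER-associated degradation, was the 1 member whose groups did not overlap, where 15.5% of all genes did not and 6.14% had all ChAT+ values below all ChAT- values (14.3% and 6.45% of all probes). Its signal was 3.78, 3.76, 3.83 and 3.76 in ChAT+ and 4.49, 3.97, 4.03 and 4.03 in ChAT- arrays. The ChAT+ arrays lay close together, and ChAT- replicate 1 stood above the other ChAT- arrays. The log2 fold change was -0.35 (SE 0.14, 95% interval -0.66 to -0.035, limma adjusted p = 0.162). Its two-sided exact permutation p was 0.0286, and 4 arrays a group can give none lower. Without ChAT- replicate 1 the log2 fold change was -0.23.

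The transcription factors gave small differences. Xbp1 had a signal of 3.94, 3.96, 3.89 and 3.66 in ChAT+ and 4.53, 4.06, 3.64 and 3.98 in ChAT- arrays. The highest and the lowest array of all 8 both came from the ChAT- group. The log2 fold change was -0.19 (SE 0.19, 95% interval -0.61 to 0.23, limma adjusted p = 0.571), -0.029 without ChAT- replicate 1 and -0.33 without ChAT- replicate 3. This probe gives total Xbp1 signal, and whether it tells the spliced from the unspliced transcript was not analysed here.

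Atf4 encodes the main factor downstream of PERK and is controlled in large part at translation, which arrays do not read. Its brighter probe was 4.75, 5.05, 4.81 and 4.53 in ChAT+ and 5.10, 4.93, 4.57 and 4.87 in ChAT- arrays. The groups overlapped, and the log2 difference was -0.081 (SE 0.16, limma adjusted p = 0.788). The second Atf4 probe was 4.31, 4.51, 4.24 and 3.83 in ChAT+ and 4.74, 4.56, 4.28 and 4.41 in ChAT- arrays. In the probe fit that probe had a log2 fold change of -0.27 (95% interval -0.68 to 0.13, limma adjusted p = 0.398) against -0.081 for the brighter one, both with intervals that span 0. The brighter probe ranged from -0.18 without ChAT- replicate 3 to 0.0026 without ChAT+ replicate 4.

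Ddit3 encodes CHOP, the factor linked to cell death after lasting ER stress. Its signal was 3.12, 2.83, 2.89 and 2.80 in ChAT+ and 2.97, 2.76, 2.81 and 3.07 in ChAT- arrays. This was the difference nearest to 0 of the 10, at a log2 fold change of 0.0029 (SE 0.13, 95% interval -0.28 to 0.29, limma adjusted p = 0.992), between -0.067 without ChAT+ replicate 1 and 0.059 without ChAT- replicate 4. Ddit3 and Dnajb9, the latter by its brighter probe, also varied least over the 8 arrays. Their SDs were 0.13 each, below which lay 6.19% and 5.33% of all genes. The other Dnajb9 probe varied more, from -0.63 to 0.023 where the brighter one ran from 1.00 to 1.37.

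**Figure D2:**
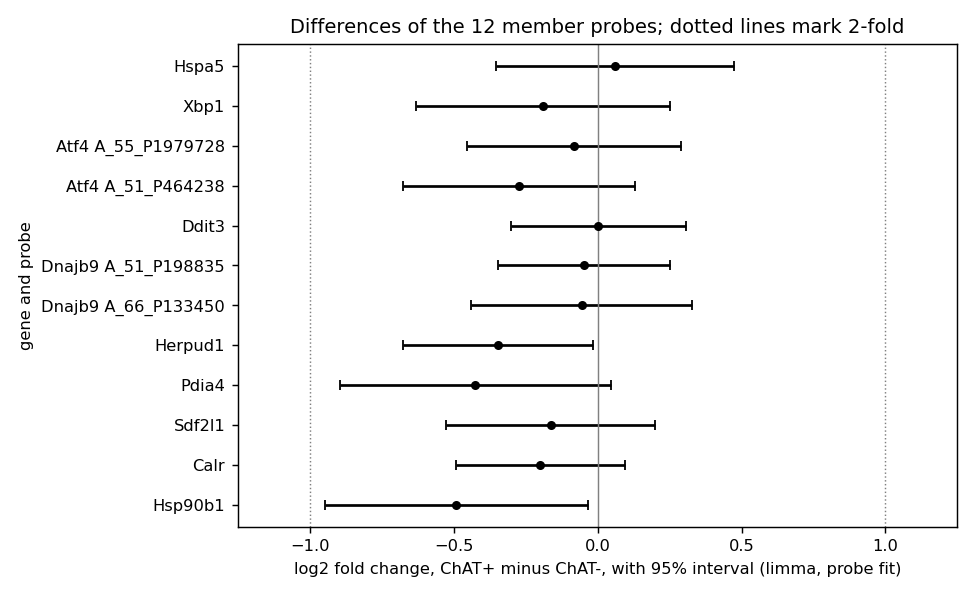
Log2 fold change (horizontal axis, ChAT+ minus ChAT-) of each of the 12 probes with its 95% interval from the limma fit over 32086 probes; dotted lines mark 2-fold. All intervals lie inside 2-fold, and those of Herpud1 and Hsp90b1 end just below 0 before adjustment.

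Ratios between members within the same array do not depend on how arrays were scaled. Each gene was read from its brightest probe. Over the 45 pairs of members, the ratio did not overlap between groups for 2 pairs (4.44%), against 16.5% of all gene pairs. Both pairs held Hsp90b1. The log2 ratio of Hspa5 to Hsp90b1 was 0.070, -0.12, 0.11 and -0.21 in ChAT+ and -0.82, -0.50, -0.61 and -0.41 in ChAT- arrays. Every ChAT- array lay below every ChAT+ array. The mean was -0.035 ± 0.15 (SD, n = 4) in ChAT+ and -0.59 ± 0.17 (SD, n = 4) in ChAT- arrays, a difference of 0.55 with an exact permutation p of 0.0286, the smallest possible, and of 0.386 after Benjamini-Hochberg adjustment over the 45 pairs. The ratio of Atf4 to Hsp90b1 differed by 0.41 with the same p-values, by the brighter Atf4 probe. By the second probe, Atf4 was at 3.83 in ChAT+ replicate 4, beside 4.16 for Hsp90b1. It was at 4.28 in ChAT- replicate 3, beside 4.34 for Hsp90b1, so by that probe the groups overlapped. No pair passed the adjustment. Hspa5 and Hsp90b1 both hold the ER stress response element shown above.

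**Figure D3:**
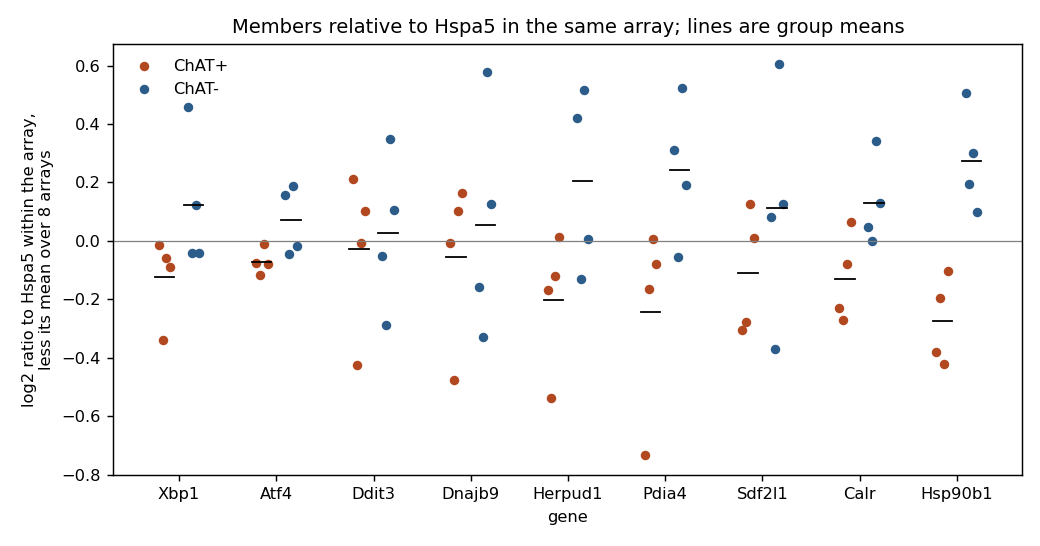
Log2 ratio of each other member to Hspa5 in the same array, less its mean over the 8 arrays (vertical axis), by group; lines are group means. For Hsp90b1 the ChAT+ and ChAT- arrays do not overlap, and for the other 8 genes they do.

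Across the 8 arrays the scaled signals of most members varied together. Of the 45 pairs, 36 had a positive Pearson correlation, with a median of 0.46 (0.34 after removing each group's mean), beside 52.3% of all gene pairs and a median of 0.033. The points share the arrays, their scaling and their groups, so these are descriptions. Hspa5 was highest on the array with the lowest 75th percentile (ChAT+ replicate 2, 10.8). It was lowest on the array with the highest (ChAT- replicate 3, 11.6). The part of the scaling in these correlations was not tested, and the gene pairs set beside the members were not matched for brightness. Calr with Hsp90b1 (0.89) and Hspa5 with Atf4 (0.88) were the closest pairs. By its brighter probe, Dnajb9 had correlations of -0.53 with Hspa5 and -0.39 with Atf4 but of 0.56 with Sdf2l1 and 0.46 with Ddit3. The other Dnajb9 probe ordered the arrays differently. It was highest in ChAT- replicate 1 (0.023), where the brighter probe ranked 5 of 8. All these correlations use the brightest probe of a gene, and none was computed for the second probes of Dnajb9 and Atf4.

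ChAT- replicate 1 was the highest of the 8 arrays for 8 of the 12 probes (66.7%), where it was the highest for 11.7% of all genes. That count was 3 under median scaling and 3 under quantile normalization, where ChAT+ replicate 3 (9 probes) and ChAT- replicate 3 (6 probes) led instead. Plasma cell markers were also highest in ChAT- replicate 1, for 9 of 16 tested. Jchain, the antibody joining chain, was 4.99, 3.45, 4.52 and 4.15 in ChAT+ and 5.49, 3.59, 4.63 and 4.79 in ChAT- arrays. Both replicates 2 were the lowest and ChAT- replicate 1 the highest. Sdc1, which encodes CD138, and Tnfrsf17, which encodes BCMA, spanned 4.39 and 5.53 log2 units over the 8 arrays, far more than any member (at most 1.16, for Pdia4). The summed linear signal of the plasma cell markers was 95.4 to 132 in ChAT+ and 83.3 to 179 in ChAT- arrays, so the groups overlapped. Of the 16, 1 rose and 1 fell in ChAT+ pools. Fcrl5, an Fc receptor-like protein of B lineage cells, was at 1.50 ± 0.22 against 0.42 ± 0.15 (SD, n = 4 each; limma adjusted p = 0.00733). Prdm1, which encodes BLIMP1, was at 0.57 ± 0.35 against 1.85 ± 0.36 (SD, n = 4 each; limma adjusted p = 0.0196), a call lost with no filter on dim probes (adjusted p = 0.0521, the highest of its alternatives). Jchain, Sdc1 and Tnfrsf17 were not called and are named after their values were seen.

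Of the 16 plasma cell markers, Txndc5, Derl3, Creld2 and Edem1 also stand on the ER stress lists, so the members were set against the log2 of the summed signal of the other 12, a choice made after seeing the data. Herpud1 had a Pearson r of 0.51 (Spearman 0.26) over the 8 arrays, 0.036 without the farthest arrays, ChAT- replicates 1 and 2, and 0.83 once each group's mean was removed. Xbp1 had 0.47 (Spearman 0.14), and 0.27 without those arrays. Ddit3 had 0.65 (Spearman 0.79), and 0.68 without them. The positive relations of Herpud1 and Xbp1 thus shrank without those 2 arrays, and that of Ddit3 did not.

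Dnajb9 had 0.43 (0.46 without those arrays), Sdf2l1 0.38 (-0.24) and Atf4 0.14 (-0.16), with Dnajb9 and Atf4 read from their brighter probes. Hspa5 had -0.081 (-0.12), Calr -0.11 (-0.36), Pdia4 0.025 (-0.49) and Hsp90b1 0.0041 (-0.64). With all 16 markers in the sum, Herpud1 had 0.64, 0.23 without those arrays and 0.85 with group means removed. All these points share the arrays and their scaling. The part of plasma cell RNA in any member's value was not tested.

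**Figure D4:**
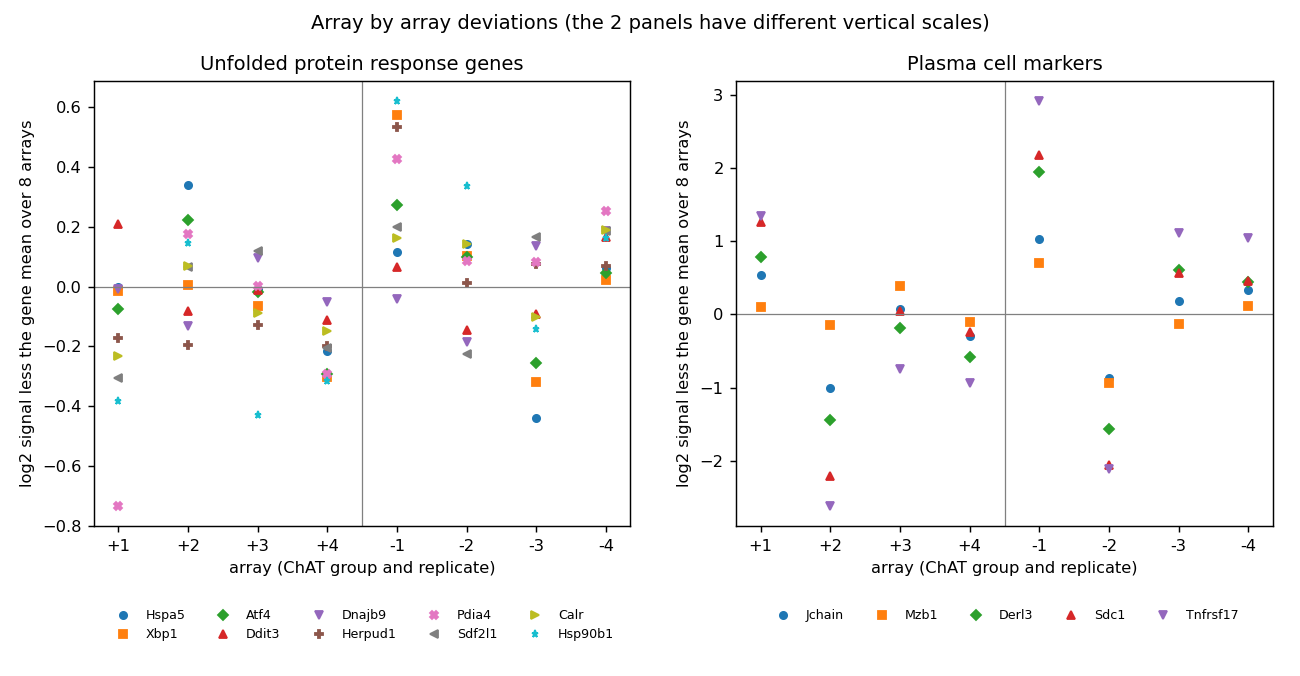
Log2 signal of each gene less its mean over the 8 arrays (vertical axes, on different scales) for the 10 members and for 5 plasma cell markers, by array. ChAT- replicate 1 is high in both panels, while both replicates 2 are low for these 5 markers and not for most members. Over all 16 plasma cell markers, ChAT- replicate 2 was the lowest of the 8 arrays for 7 and the highest for 3. ChAT+ replicate 2 was the lowest for 3 and the highest for 0. Prdm1, not shown, was highest of its group in both replicates 2 (0.87 in ChAT+ and 2.25 in ChAT-).

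Markers of some other cells differed between the reporter groups, and those of others overlapped. Over all single genes, 46.9% had lower means in ChAT+ pools and 15.5% did not overlap between groups. No such share was computed for summed signals. The summed linear signal was higher in ChAT+ pools, with no overlap, for B cell markers (175 to 223 against 121 to 158; 18 of 19 means higher) and for ILC and innate-like T cell markers (47.9 to 63.4 against 30.2 to 34.1; 17 of 18). It was lower, with no overlap, for basophil and mast cell markers (11.2 to 14.1 against 27.3 to 58.4; 10 of 12 means lower) and for platelet and erythroid markers (18.5 to 24.8 against 31.6 to 59.6; 12 of 13). The groups overlapped for T cell markers (39.1 to 58.5 against 39.3 to 55.7; 11 of 17 means lower, 6 with median scaling), for neutrophil and monocyte markers (42.5 to 75.5 against 63.5 to 108; 15 of 17 means lower) and for plasmacytoid dendritic cell markers (117 to 154 against 102 to 135; 8 of 15 means lower, 7 with median scaling). The median log2 fold change of the neutrophil and monocyte markers was -1.09. The basophil receptor gene Cd200r3 was not well above background on any ChAT+ array. The part of these cells in the members' values was not tested.

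The wider ER stress genes, as counted in this text, are those of 8 pathway lists. They include 19 tested genes of a cytosolic heat shock list and 11 of a mitochondrial list, which serve folding outside the ER. The heat shock list also holds the mitochondrial chaperonin genes Hspd1 and Hspe1. Of 191 tested outside the 10 members, 8 passed the test, 5 higher and 3 lower in ChAT+ pools. The 5 include Hsph1 of the heat shock list. The median log2 fold change of the 191 was -0.069. The share called was 4.19%, beside 5.96% of all genes. The 5 became 3 without ChAT+ replicate 2 or 3 or ChAT- replicate 2, 3 or 4. The 3 became 1 without ChAT+ replicate 1 or 3, 0 without ChAT- replicate 4 and 6 without ChAT+ replicate 2.

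The sensors did not pass the test, 0 of 8 with the proteases that cut ATF6 (limma; at an unadjusted p under 0.05, 1 was higher and 2 were lower). Named as the defining genes of the list and after their values were seen, the sensor genes gave values in both directions. Ern1, which encodes IRE1, was at -0.39 ± 0.22 (SD, n = 4) in ChAT+ and 0.17 ± 0.30 (SD, n = 4) in ChAT- pools, a log2 fold change of -0.56 (limma adjusted p = 0.0961). Atf6 was at 1.69 ± 0.25 against 1.17 ± 0.22 (SD, n = 4 each), a log2 fold change of 0.52 (limma adjusted p = 0.0961). Eif2ak3, which encodes PERK, had 0.17 (adjusted p = 0.532). The brightest tested genes of the list, Mbtps1 (the site 1 protease) and Creb3, had log2 fold changes of 0.13 and 0.039.

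In the PERK and ATF4 branch, 1 of 33 tested genes was called. Eif2ak4, which encodes GCN2, the amino acid sensing kinase that acts on the same translation factor as PERK, rose in ChAT+ pools. Its signal was -0.38, -0.75, -0.64 and -0.82 in ChAT+ and -1.47, -1.71, -1.39 and -1.40 in ChAT- arrays, with no overlap and a difference of 0.84 on the log2 scale (SE 0.14, limma adjusted p = 0.0143). That call held whichever array was left out (adjusted p up to 0.045).

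Among ER chaperones and folding enzymes outside the 10, 1 of 34 was called. Ero1b, an oxidase that recharges protein disulfide isomerases, rose from 1.32 ± 0.063 to 2.17 ± 0.22 (SD, n = 4 each), by 0.85 on the log2 scale (SE 0.13, limma adjusted p = 0.0125). Its call held whichever array was left out (adjusted p up to 0.0474). P4hb, the main protein disulfide isomerase, missed the threshold at a log2 fold change of -0.44 (adjusted p = 0.0521) and is named after its value was seen. Canx, Pdia6 and Creld2, also named after their values were seen, had log2 fold changes of 0.051, -0.15 and -0.33.

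In ER-associated degradation 1 of 27 was called, Creb3l1, a membrane-bound relative of ATF6 placed in this list, which fell by 0.63 on the log2 scale (SE 0.11, limma adjusted p = 0.0201). Its call was lost without ChAT+ replicate 1 or ChAT- replicate 3 or 4 (adjusted p up to 0.0666), and with median scaling or no filter on dim probes (up to 0.31). Among genes of ER translocation, glycosylation and export, 1 of 44 rose and 2 fell. Srp54b, a subunit of the signal recognition particle with close copies in the mouse genome whose transcripts its probe may share, rose by 1.30 (SE 0.21, adjusted p = 0.0127). Srp9, another subunit, fell by 1.05 (SE 0.19, adjusted p = 0.0201), a call lost without ChAT+ replicate 3 or ChAT- replicate 4 and with median scaling, no filter or a gene's probes averaged (adjusted p up to 0.069). Sec24d, a coat protein of ER export vesicles, fell by 0.66 (adjusted p = 0.0351), a call that held only without ChAT- replicate 2 among the 8 arrays left out (adjusted p up to 0.099) and that was lost with median scaling or no filter (up to 0.27). Of these 44 genes, 37 had lower means in ChAT+ pools and their median was -0.15. With median scaling 15 of 44 did, while 37 of 44 lay below the all-gene median under both scalings. In the cell death list 1 of 15 was called, Itpr1, an ER calcium channel, at a log2 fold change of 0.48 (adjusted p = 0.0481), and no fit without 1 of the arrays kept that call (adjusted p up to 0.129), nor did median scaling, normexp correction or a looser filter on dim probes (up to 0.114).

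**Figure D5:**
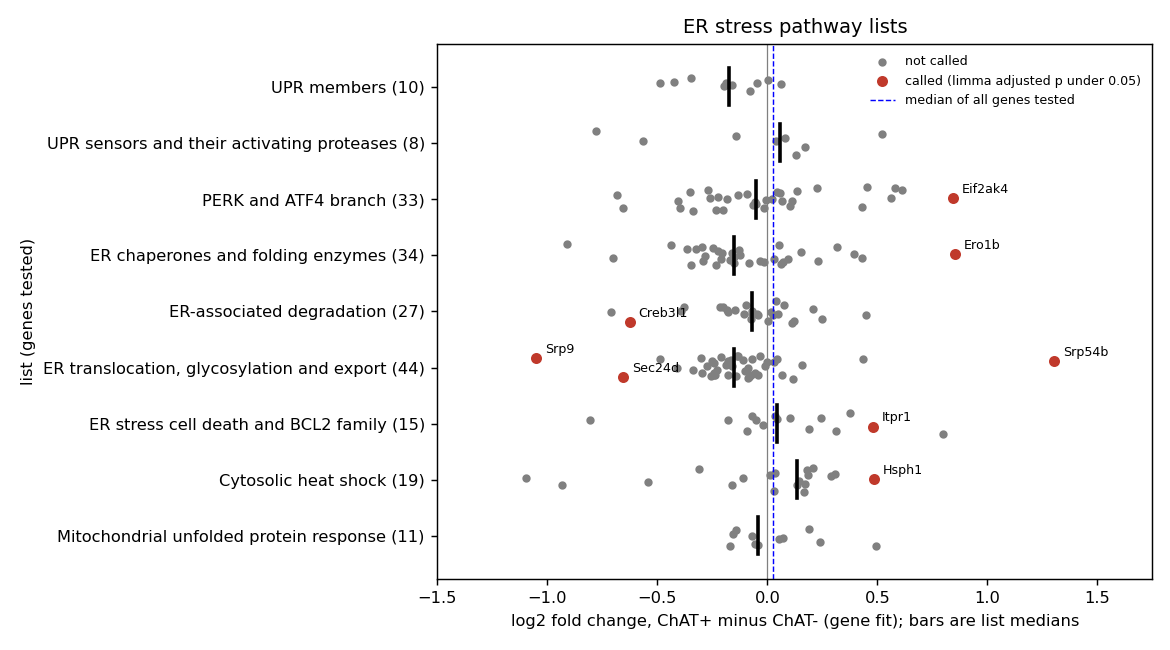
Log2 fold change (horizontal axis, ChAT+ minus ChAT-) of each tested gene in the 10 members and 8 pathway lists; red points passed limma's adjusted p threshold, black bars are list medians and the dashed line is the median of all genes. Red points lie on both sides of 0, and none is among the 10 members.

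Either form of the ER stress response element stood in the promoter window of 49 genes, 28 of them tested, the 4 members included. Of these 28, 1 rose (Ero1b) and 1 fell (Lgalsl), 17 had lower means in ChAT+ pools, and the median log2 fold change was -0.15. Over all genes 5.96% were called, 46.9% had lower means and the median was 0.026. Median scaling, which shifts every log2 fold change alike, moved that all-gene median to 0.24. The 24 of the 28 that are not members had a median of -0.14 on the main scale. Over all 28 the log2 fold changes ran from -0.84 (Lgalsl) to 0.85 (Ero1b), so genes with the element lay on both sides of 0.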

How the data were processed

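Intensities were measured on 8 1-colour Agilent arrays. The deposited processed intensities come from Agilent Feature Extraction 11.5.1.1, per the file headers, and carry a background subtraction but no scaling across arrays. The value table that the authors deposited gives log2 values (31942 probes). Each column followed log2 of the processed intensity less a constant within 0.0065 of that array's 75th percentile, with column medians of -0.72 to -0.63 (scale and direction as here, not centred per gene). It served as an alternative.

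Controls were dropped, as were 1344 spot values with an outlier flag (51 probe values with every spot flagged were kept), spots of a probe were averaged, and 26762 of 55681 probes were named with 1 symbol through unversioned RefSeq accessions (GRCm38.p6 table). The array was annotated on an earlier assembly, per the file headers. Values analysed are log2 intensity minus the array's 75th percentile. The brightest kept probe stood for a gene. limma 3.58.1 in R 4.3.3 (lmFit, eBayes, Benjamini-Hochberg, no block) compared the groups over 13607 genes and, separately, 32086 probes. The procedure was tested on simulated data. The number of arrays limits precision.

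The members and lists were chosen with earlier results of these data known. Named are the 10 members, Chat, up to 4 called genes per pathway list (the 2 brightest where none was called), up to 3 called genes per marker list, and the 8 genes most correlated with Hspa5. For most marker lists summed signals are given in place of names. Genes named outside this rule, after their values were seen, are Ern1, Atf6, Eif2ak3, P4hb, Canx, Pdia6, Creld2, Lgalsl, Jchain, Sdc1, Tnfrsf17, Sec61g, Hsp90aa1, Hspd1, Hspe1 and the plasma cell markers shared with ER stress lists. Alternatives used another scaling, background correction, filter, rule for a gene with several probes, variance model, threshold or value source, added array weights or a replicate block, or left out an array.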

Additional observations from a re-analysis of the deposited data

Results flagged for a closer look

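In 4 of 24 sets of 4 arrays (12 probes in each group), 1 array stood apart from the other arrays of its group by Dixon's criterion, where chance gives about 1 in 20. All 4 were ChAT- arrays. The Hspa5 signal of ChAT- replicate 3 was 3.73, with the others at 4.23 to 4.31. The Calr signal of ChAT- replicate 3 was 4.69, with the others at 4.93 to 4.98. These signals are relative to the 75th percentile, which was highest on ChAT- replicate 3 (11.6, other ChAT- arrays 11.0 to 11.1). Before scaling, its Calr intensity was the highest of the 8 arrays (80736). Its unscaled Hspa5 intensity was 41449, beside 41490 and 41499 in ChAT- replicates 1 and 2. The part of the scaling in the flags for Hspa5 and Calr was not tested. The Sdf2l1 signal of ChAT- replicate 2 was 3.29, with the others at 3.69 to 3.72. The Herpud1 signal of ChAT- replicate 1 was 4.49, with the others at 3.97 to 4.03.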

How the results depend on the processing

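Of the 10 members 0 were called higher under any alternative, and 0 lower except for 1 (Hsp90b1) under normexp background correction. Elsewhere counts of genes called higher and lower, 383 and 428 with all arrays, became 211 and 119 when arrays were scaled by the median, 98 and 125 when dim probes were kept, and 868 and 837 at an adjusted p under 0.10. With array weights 577 were higher. Counts of probes, 468 higher and 525 lower, became 190 lower under median scaling, 764 higher under quantile normalization, 203 and 257 with a filter at 1 array, 86 and 115 with no filter, 772 and 909 with array weights, and 1302 and 1518 at 0.10. Of the wider ER stress genes, 5 higher and 3 lower, 3 and 0 were called under median scaling or with no filter, 3 higher with a filter at 1 array, 7 lower under normexp or array weights, 5 lower with a filter at all 8 arrays or a trended and robust variance, and 10 and 8 at 0.10. Leaving out single arrays gave 94 to 306 genes higher and 116 to 426 lower, 79 to 232 probes higher and 102 to 411 lower, 3 to 4 wider ER stress genes higher and 0 to 6 lower, and 0 members. Each cause was not tested. The replicate numbers were not taken to pair samples, since same-numbered arrays deviated together with correlations of 0.54, 0.66 and 0.52 but 0.032 for number 4, and 3 of 4 ChAT+ arrays correlated best with their own number. With the replicate block 1002 genes were higher and 1340 lower, 1401 and 2427 probes, 12 and 9 wider ER stress genes, and 0 members. The smallest limma adjusted p of a member was 0.0716 with the block and 0.161 without it. All main p-values and correlations take the 8 arrays as unpaired, which the labels do not settle. Slide and group cannot be told apart, and small changes are limited by 4 arrays a group.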

Other observations

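Cytosolic heat shock genes and the mitochondrial unfolded protein response serve protein folding outside the ER. Of 19 tested genes of the cytosolic heat shock list 1 rose in ChAT+ pools, Hsph1, an HSP70 family exchange factor. It went from 2.42 ± 0.10 to 2.91 ± 0.11 (SD, n = 4 each), a log2 fold change of 0.48 (limma adjusted p = 0.0421). Its call was kept in 1 of the 8 fits that left out an array (adjusted p up to 0.117), and was lost with median scaling, normexp correction or a looser filter on dim probes (up to 0.211). The list's median log2 fold change was 0.14, with the mitochondrial chaperonin genes Hspd1 (0.29) and Hspe1 (0.011) counted in it. Of 11 genes of the mitochondrial list limma called 0 (at an unadjusted p under 0.05, 1 was higher), with a median of -0.044. Hspa9 and Timm23, the brightest of that list, had 0.054 and -0.072.

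The 8 genes outside the members whose values over the 8 arrays were most like those of Hspa5 were Nup210, Hgs, Cox17, Rps9, Synrg, Cdk2ap2, Rpl8 and Ghitm, with Pearson correlations of 0.981 to 0.990. Among the pathway lists the closest were Sec61g (0.956) and Hsp90aa1 (0.954). The arrays, their scaling and their groups are shared by all these values, so the correlations are descriptions. None of these 10 genes was called.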
